A study of Sus scrofa with 30 samples.

Results

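Neonatal islet cell clusters (NICCs) are the endocrine-rich aggregates that form when the minced and digested pancreas of newborn piglets is kept in culture, and their beta cells are immature at isolation. The libraries described here follow NICCs through maturation in standard medium: 4 libraries of maturation d5 (culture d10, HSA/d5) were compared with 4 libraries of maturation d1 (culture d6, HSA/d1). Both groups came from German Landrace and Landrace-Yorkshire piglets, and both were kept in serum-free maturation medium with human serum albumin (HSA) and no further agent. The 8 libraries were chosen by the treatment and the culture day in the sample labels, out of 24 libraries of 6 conditions, and 3 of them were sequenced in 2 runs whose counts share a column. By the study's account the sequenced NICCs came from piglets 4 and 12 days old. The labels assign no library to an age or to one of the 4 islet preparations, so the age of a replicate was not analysed here. The p-values below rest on a spread estimated over all 24 libraries, which may be technical in part. Days in maturation medium and total days in culture rose together, so the effects of each cannot be told apart.

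As background, a beta cell becomes functional after birth by gaining the machinery that couples glucose to insulin release. Glucose is metabolised, the resulting ATP closes channels built with the sulfonylurea receptor ABCC8, the membrane depolarises, calcium enters, and synaptotagmins trigger the fusion of granules that hold insulin cut from its precursor by the convertases PCSK1 and PCSK2. Transcription factors such as NEUROD1, NKX6-1, NKX2-2 and MAFA keep up the expression of these genes, and an immature islet cell in contrast divides readily and uses genes, such as lactate dehydrogenase, that mature beta cells keep low.

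Each library held between 19095896 and 22967442 counts. Mean total counts were 21775800 in HSA/d1 and 21059500 in HSA/d5 (medians 21681513 and 21433915). The means did not differ detectably (exact two-sided permutation test p = 0.486, n = 4 against 4, where 0.0286 is the smallest p the design allows). Levels are given as CPM, the read count of a gene brought to a common library size with TMM factors, and values of a group are listed in the order of its replicates 1 to 4, numbered by the library numbers in the labels. The first principal component, with 51.7% of the variance, placed every HSA/d1 library (-55.7, -54.7, -22.5 and -10.8) below every HSA/d5 library (27.3, 19.6, 37.5 and 59.3). The second, with 17.4%, separated replicates 1 and 2 from replicates 3 and 4 at both time points. Replicate 3 of HSA/d5 stood apart on the third component (11.3% of the variance), at -43.1 where the other libraries lay between -10.6 and 20.3.

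**Figure D1:**
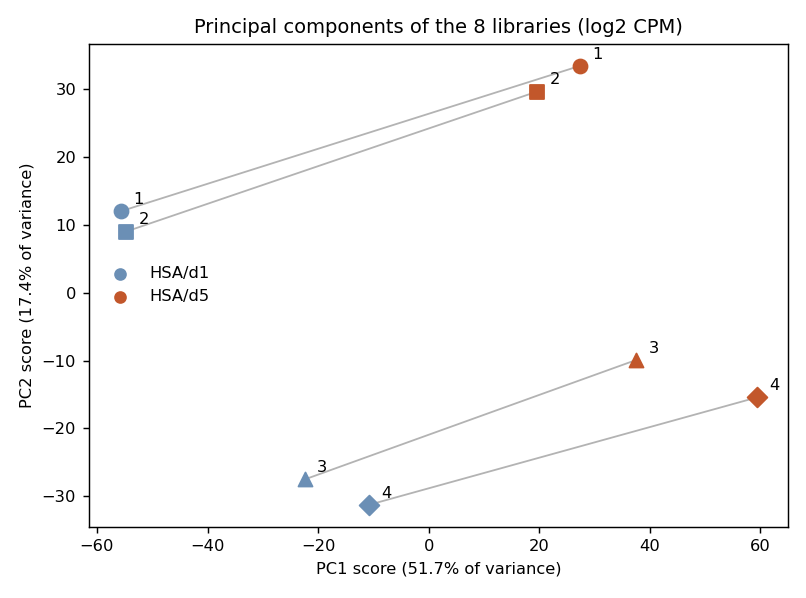
Scores of the 8 libraries on the first 2 principal components of log2 CPM, with HSA/d1 in blue and HSA/d5 in orange, numbers giving the replicate and lines joining the same number. All 4 HSA/d5 libraries lie to the right of all 4 HSA/d1 libraries, and replicates 1 and 2 lie above replicates 3 and 4 at both time points.

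Which genes changed while NICCs matured in albumin was asked for 14842 genes, with edgeR's quasi-likelihood test and Benjamini-Hochberg adjustment. With thresholds of 1 for the log2 fold change in either direction and 0.05 for the adjusted p, 1323 genes (8.91%) were called, of which 994 were upregulated (6.7% of those tested) and 329 downregulated (2.22%). Their median log2 fold changes were 1.49 and -1.44, and that of all genes tested was -0.01. Of the upregulated genes 948 had the higher value in HSA/d5 in every same-numbered pair of libraries, and of the downregulated genes 309 had the lower. These genes were called on the same libraries, so such agreement follows in large part from the selection and is no separate evidence. At an adjusted p below 0.05 alone, the changes were balanced, with 2800 genes higher (18.9%) and 2774 lower (18.7%), and with 1806 of the increases and 2445 of the decreases within the fold threshold, so that most large changes were increases and most small ones decreases. In what follows, upregulated and downregulated mean past both thresholds, and rose and fell mean past the adjusted p. Without HSA/d5 replicate 3 the counts were 988 upregulated and 345 downregulated genes.

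Hormones and the proteins of their secretory granules had the largest median change of the 29 gene lists examined. Of 21 members tested, 18 were upregulated (6.7% of all genes were) and none was downregulated, with a median log2 fold change of 2.09 against -0.01 over all genes. Their summed level was 7278, 6656, 9462 and 11199 CPM in HSA/d1 and 41634, 28766, 36620.3 and 50284 CPM in HSA/d5, and every HSA/d5 library was above every HSA/d1 library. A large part of this sum was the glucagon gene GCG. Its mean was 3681 CPM on d1 and 19451 CPM on d5, where the mean of the sum was 8649 and 39326 CPM. In whole tissue of this kind a change in the number of cells of a type and a change in RNA per cell cannot be told apart, here and in all groups below. Over the same days the summed level of acinar markers went down in every replicate, with a mean of 17339 ± 9420.4 CPM on d1 and 5194 ± 4823 CPM on d5 (SD, n = 4), and its part in the rise of islet transcripts was not tested. Within same-numbered pairs the median log2 ratio of the 21 islet genes was 2.33, 2.07, 1.73 and 2.04, so the shift was of like size in all 4.

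Insulin, the product of beta cells encoded by INS, was higher on d5 in all 4 same-numbered pairs but varied widely. INS was at 349, 387, 930.1 and 1376 CPM in the HSA/d1 libraries and at 1447, 413, 2684 and 5651 CPM in the HSA/d5 libraries. Replicates 1, 3 and 4 were clearly higher on d5, replicate 2 barely moved, and the groups overlapped. The fitted log2 fold change was 1.74 (SE 0.82, adjusted p = 0.0981), which did not pass the test. With same-numbered libraries compared within blocks it was 1.47 (adjusted p = 0.000731), and without HSA/d5 replicate 2 and with no block it was 2.10 (adjusted p = 0.0485). It was 0.99 without HSA/d5 replicate 4 (adjusted p = 0.381) and 2.20 without HSA/d1 replicate 4 (adjusted p = 0.0656), again with no block.

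The hormones of the other main islet cell types were higher on d5 in every replicate. Glucagon, the alpha cell hormone encoded by GCG, was at 3441, 2947, 3787 and 4550.1 CPM on d1 and at 24320.0, 14725, 15711 and 23049 CPM on d5, a 5.28-fold increase (log2 fold change 2.40, SE 0.45, adjusted p = 0.000424). Somatostatin, the product of delta cells encoded by SST, was at 540.2, 556, 727 and 619 CPM on d1 and at 2831, 2909, 2547 and 2172 CPM on d5, 4.28-fold higher (log2 fold change 2.10, SE 0.23, adjusted p = 2.69e-06). The 4 values of each group were tight for SST and did not overlap. Pancreatic polypeptide, encoded by PPY, was at 231, 92.4, 161 and 199.8 CPM on d1 and 1272, 404, 728 and 1035 CPM on d5 (log2 fold change 2.33, SE 0.48, adjusted p = 0.000927), with replicate 2 lowest at both time points. The ghrelin gene GHRL had 7 counts in the 4 libraries of each group and was not tested.

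Most other markers of non-beta islet cells were also upregulated. Of 16 tested markers of alpha, delta, PP and epsilon cells, 11 were upregulated (6.7% of all genes were) and none was downregulated (2.22%). Without the 3 hormones 8 of 13 were upregulated (median log2 fold change of the 13 1.17, of the 16 1.56). IRX1 and IRX2, homeobox factors of alpha cells, had log2 fold changes of 1.90 and 1.61 (adjusted p = 0.00229 and 0.000755). GC, the vitamin D-binding protein that alpha cells make, went from 1.67, 1.86, 2.16 and 1.58 CPM to 8.35, 10.3, 7.99 and 7.89 CPM, with the smallest p of all upregulated genes that had a symbol and no overlap (log2 fold change 2.24, SE 0.18, adjusted p = 2.2e-07). DPP4, a peptidase that inactivates incretins, rose from 9.29, 11.2, 11 and 11.3 CPM to 31.8, 34.5, 25.7 and 30.9 CPM (log2 fold change 1.52, SE 0.15, adjusted p = 1.64e-06). Both sets of values were tight, with the lowest HSA/d5 library far above the highest HSA/d1 library. The leptin receptor LEPR rose with a log2 fold change of 2.28 (adjusted p = 6.03e-05), whereas HHEX, a delta cell factor, rose by only 0.39 on the log2 scale (adjusted p = 0.00926).

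Granule proteins common to all endocrine cells rose as well, and in 16 of the 21 hormone and granule genes the lowest HSA/d5 value exceeded the highest HSA/d1 value, against 15.7% of all genes tested. Chromogranin A (CHGA) was at 444, 494, 902 and 915 CPM on d1 and at 3865, 3642, 6883 and 6506 CPM on d5, 7.58-fold higher (log2 fold change 2.92, SE 0.48, adjusted p = 0.000123). Carboxypeptidase E (CPE), which trims prohormone fragments, went from 106, 94.8, 142 and 188 CPM to 799, 575, 833 and 1207 CPM (log2 fold change 2.69, SE 0.44, adjusted p = 0.000119). The convertase PCSK1 rose from 179, 138, 289 and 419.8 CPM to 795, 653, 842 and 1578 CPM (log2 fold change 1.92, SE 0.46, adjusted p = 0.00317), with replicate 4 highest on both days. PCSK2 had a log2 fold change of 2.36, and PTPRN and PTPRN2, membrane proteins of the granule, of 2.09 and 2.19 (adjusted p = 0.000677, 1.35e-05 and 6.83e-05). Secretogranins SCG2, SCG3 and SCG5 had log2 fold changes of 2.20, 1.37 and 2.32, and CHGB of 2.13, each with an adjusted p below 0.05. PAM, the amidating enzyme, had a log2 fold change of 0.43 (adjusted p = 0.138, and 2.22e-05 with the replicate block). IAPP and UCN3 had no identifier paired with their symbols and were not analysed here.

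**Figure D2:**
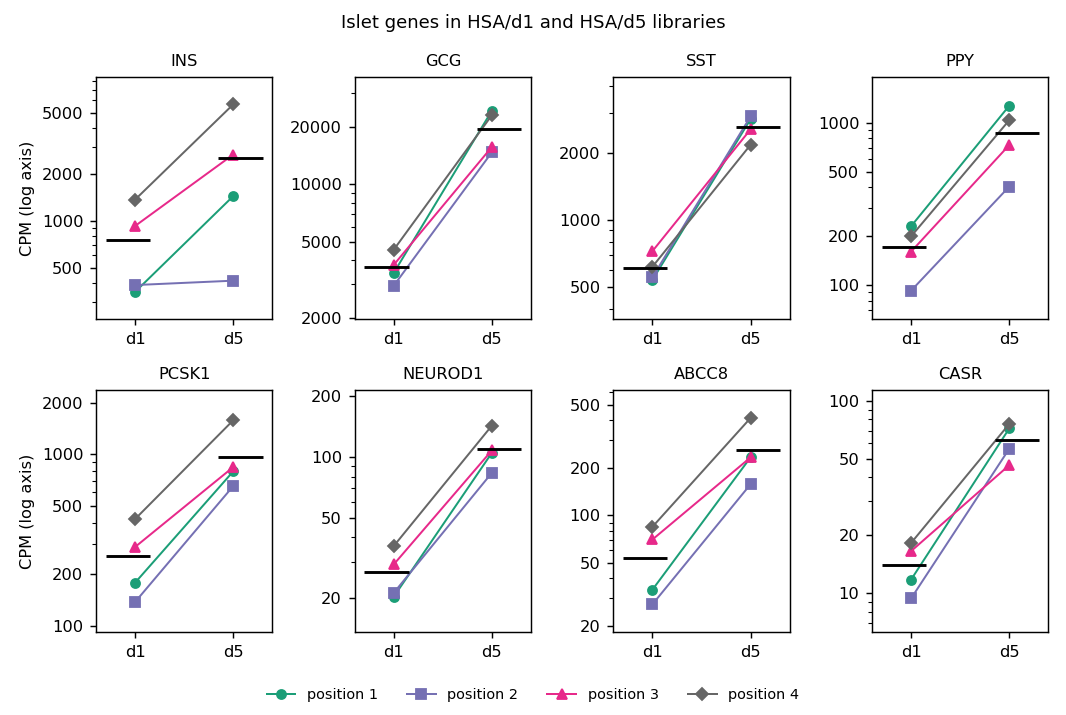
CPM on log axes of 8 islet genes in HSA/d1 and HSA/d5 libraries, with 1 line per replicate number (position in the order of library numbers) and bars at the group means (n = 4). The lines rise together except for INS, where replicate 2 goes from 387 to 413 CPM.

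Transcription factors of islet cells followed, though less uniformly. Of 19 tested, 7 were upregulated (6.7% of all genes were), 9 rose (18.9%) and none fell, and with the replicate block 13 rose (27%), with a median log2 fold change of 0.95. NEUROD1, which is needed to keep beta cells mature, was at 20.3, 21.2, 29.3 and 36.2 CPM on d1 and at 105, 83.5, 108 and 143 CPM on d5 (log2 fold change 2.04, SE 0.36, adjusted p = 0.000258). The 4 HSA/d5 values all lay above the 4 HSA/d1 values. MYT1, PAX6, ISL1, RFX6 and the glucose-responsive factor MLXIPL had log2 fold changes of 2.02, 1.48, 1.72, 1.80 and 1.75 (adjusted p = 0.000245, 0.00483, 0.000886, 0.00132 and 0.00125). NKX6-1, which sets beta against alpha cell fate, went from 27.1, 34.3, 39.1 and 54.9 CPM to 76.1, 53.3, 66.9 and 104 CPM. It rose 1.93-fold (log2 fold change 0.95, SE 0.22, adjusted p = 0.00257), or by 1.16 on the log2 scale without HSA/d1 replicate 4, although the highest HSA/d1 library lay just above the lowest HSA/d5 library. MAFA, the factor most closely tied to mature insulin secretion, was at 0.507, 0.50, 1.41 and 3.11 CPM on d1 and at 1.53, 0.614, 2.87 and 5.84 CPM on d5. It was higher on d5 in each same-numbered pair, the groups overlapped widely, and its log2 fold change of 0.96 had an adjusted p of 0.332 with no block and of 0.00453 with same-numbered libraries as blocks. With no block it was 0.28 without HSA/d5 replicate 4 (adjusted p = 0.82) and 1.74 without HSA/d1 replicate 4 (adjusted p = 0.108). Factors of the wider foregut epithelium, HNF4A and FOXA2, had log2 fold changes of -0.10 and 0.23, neither past the test, and with the block FOXA2 rose (adjusted p = 0.0251). PDX1 was not analysed here because no identifier was paired with its symbol.

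Genes of glucose sensing and electrical activity rose with few exceptions. Of 22 tested, 12 were upregulated (6.7% of all genes were), 18 rose (18.9%) and none fell (median log2 fold change 1.36). ABCC8, the sulfonylurea receptor subunit of the ATP-sensitive potassium channel, was at 33.9, 27.4, 70.4 and 84.7 CPM on d1 and at 232, 157, 232 and 412 CPM on d5 (log2 fold change 2.25, SE 0.55, adjusted p = 0.00358). All 4 HSA/d5 values of ABCC8 lay above the 4 HSA/d1 values.

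Ion channels made up most of the upregulated members. The potassium channel KCNK16 had a log2 fold change of 2.07, the calcium channel subunit CACNA1A of 1.70, the calcium release channel RYR2 of 1.81, and the sodium channels SCN3A and SCN9A of 1.53 and 1.49, each with an adjusted p below 0.05. The zinc transporter of insulin granules, SLC30A8, was at 7.26, 4.86, 16.2 and 21.1 CPM on d1 and 41.9, 21.9, 37.8 and 76.7 CPM on d5 (log2 fold change 1.85, SE 0.63, adjusted p = 0.0266), and its adjusted p was 0.0793, 0.0819 and 0.0999 without HSA/d1 replicate 1, HSA/d1 replicate 2 and HSA/d5 replicate 4. G6PC2, the islet glucose-6-phosphatase, was at 2.28, 0.727, 4.31 and 9.01 CPM on d1 and 13.9, 5.58, 5.78 and 34.7 CPM on d5, with overlapping groups (log2 fold change 1.87, SE 0.93, adjusted p = 0.117). With the replicate block its adjusted p was 0.000368. With no block the log2 fold change was 1.05 without HSA/d5 replicate 4 (adjusted p = 0.428) and 2.62 without HSA/d1 replicate 4 (adjusted p = 0.0568). The glucose transporter SLC2A2 was the member with the most negative value, with 81.2, 53.9, 23.3 and 29.99 CPM on d1 and 45, 48.3, 12.7 and 28.6 CPM on d5 (log2 fold change -0.48, SE 0.45, adjusted p = 0.417), and it was lower on d5 in all 4 pairs although the groups overlapped. The channel subunit KCNJ11 was not analysed here.

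In the machinery of granule release, 10 of 28 genes tested were upregulated (6.7% of all genes were), 18 rose (18.9%) and 2 fell (18.7%, median log2 fold change 0.61). SYT4, a synaptotagmin that rises as beta cells mature, had a mean of 28.9 ± 10.7 CPM on d1 and 116 ± 39 CPM on d5 (SD, n = 4, log2 fold change 2.00, adjusted p = 0.00173). SYT7, a calcium sensor of insulin release, went from 15, 13.7, 22.9 and 32.6 CPM to 48.9, 42.5, 51.4 and 95.3 CPM (log2 fold change 1.5, SE 0.38, adjusted p = 0.00473), and SYT13 from 26.6, 25.9, 52.4 and 67.3 CPM to 149, 113, 152 and 268 CPM (log2 fold change 1.99, SE 0.46, adjusted p = 0.00223). For all 3 synaptotagmins replicate 4 held the highest level at both times, and no HSA/d5 library reached down to an HSA/d1 library. RAB3B, RAB37, SNAP25 and CPLX2, which dock and prime granules, had log2 fold changes of 1.86, 2.15, 1.66 and 1.59, each with an adjusted p below 0.05. RAB27A and UNC13B, which also act in docking and priming, were the members that fell (log2 fold changes -0.45 and -0.52, adjusted p = 0.00115 and 0.00755).

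Receptors through which hormones, nutrients and transmitters act on islet cells rose in part. Of 26 tested, 12 were upregulated (6.7% of all genes were), 13 rose (18.9%) and 2 fell (18.7%, median log2 fold change 0.91). The calcium-sensing receptor CASR was at 11.8, 9.4, 16.5 and 18.3 CPM on d1 and at 71.8, 56.3, 46.2 and 75.7 CPM on d5 (log2 fold change 2.16, SE 0.31, adjusted p = 3.78e-05). The prolactin receptor PRLR, known for its part in beta cell growth, went from 3.35, 3.63, 3.98 and 4.26 CPM to 7.4, 6.85, 13.3 and 15.6 CPM (log2 fold change 1.5, SE 0.41, adjusted p = 0.00714), with replicates 3 and 4 well above replicates 1 and 2 on d5. The incretin receptor GIPR rose from 0.812, 1.09, 1.13 and 1.25 CPM to 6.05, 4.25, 3.44 and 7.02 CPM (log2 fold change 2.27, SE 0.24, adjusted p = 2.4e-06), and the glucagon receptor GCGR from a mean of 0.343 ± 0.0829 to 1.69 ± 0.448 CPM (SD, n = 4, adjusted p = 1.51e-05).

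The other incretin receptor, GLP1R, was at 2.33, 2.41, 2.3 and 4.65 CPM on d1 and at 3.34, 3.69, 3.97 and 8.97 CPM on d5. Replicate 4 was the highest at both times, and the log2 fold change of 0.77 had an adjusted p of 0.0997 with no block and 0.000825 with the replicate block. Without HSA/d1 replicate 4 and with no block it was 1.08 (adjusted p = 0.0308), and without HSA/d5 replicate 4 it was 0.33 (adjusted p = 0.498). Among receptors that restrain secretion, the somatostatin receptors SSTR2 and SSTR3 had log2 fold changes of 1.79 and 2.54 (adjusted p = 0.0113 and 0.000314). The lipid receptor GPR119 had a log2 fold change of 2.44 (adjusted p = 0.000293). INSR and SSTR1 were the members that fell, and neither passed the test without HSA/d1 replicate 1. The insulin receptor INSR went from 53.4 ± 2.27 to 45.8 ± 0.731 CPM (SD, n = 4, adjusted p = 0.0153), and without HSA/d1 replicate 1 its adjusted p was 0.0661.

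Genes that mature beta cells keep low, or that mark immature ones, mostly did not pass the test. Of 22 tested, 1 was downregulated (2.22% of all genes were), 6 fell (18.7%) and 1 rose (18.9%), with a median log2 fold change of -0.29. The gene that rose was ACOT7, a thioesterase of neurons (log2 fold change 0.42, SE 0.16, adjusted p = 0.0436), and it failed the test when any one of 6 of the 8 libraries was left out. Lactate dehydrogenase A (LDHA) was the downregulated member, at 836, 645, 269.7 and 519.7 CPM on d1 and at 248, 242, 281 and 213 CPM on d5 (log2 fold change -1.21, SE 0.24, adjusted p = 0.000678). The 4 HSA/d5 libraries were alike, the HSA/d1 libraries spread over a wide range, and replicate 3 was the pair without a decrease. Without HSA/d1 replicate 1 the log2 fold change of LDHA was -0.95, so that no gene of this list was then past the fold threshold. YAP1, a growth regulator that endocrine cells shut off, fell from 162 ± 8.48 to 120.2 ± 11.8 CPM (SD, n = 4, adjusted p = 0.000114).

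LDHA is also a gene of glycolysis and of the response to low oxygen, and in both lists more genes fell than rose. Among 19 glycolysis genes tested, 11 fell (18.7% of all genes did) and 1 rose (18.9%), with a median log2 fold change of -0.48. Pair 3 went the other way, with median log2 ratios of d5 to d1 of -0.81, -0.47, 0.0943 and -0.36 in same-numbered pairs 1 to 4, and 12 of the 19 genes were higher on d5 in pair 3. ENO1, PGK1 and ALDOA, enzymes of the lower and middle pathway, had log2 fold changes of -0.64, -0.61 and -0.58 (adjusted p = 0.00249, 0.00267 and 0.00146). PFKM was the member that rose (log2 fold change 0.54, adjusted p = 0.00729), and the pyruvate kinase PKM did not pass the test (-0.22, adjusted p = 0.137, with the replicate block 0.0396, and 0.0186 without HSA/d1 replicate 3). The count of glycolysis genes that fell was 6 without HSA/d1 replicate 1 and 7 without HSA/d1 replicate 2 or HSA/d5 replicate 4. Among 14 hypoxia response genes tested, 5 were downregulated (2.22% of all genes were), 8 fell (18.7%) and none rose (median log2 fold change -0.64).

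DDIT4, a stress-induced inhibitor of mTOR signalling, was at 392, 491, 170.4 and 225 CPM on d1 and at 126, 127, 120.3 and 114 CPM on d5 (log2 fold change -1.39, SE 0.21, adjusted p = 6.7e-05). The secreted peptide adrenomedullin (ADM) was at 47.3, 69, 8.67 and 17.9 CPM on d1 and at 10.3, 7.8, 9.84 and 7.94 CPM on d5 (log2 fold change -1.99, SE 0.49, adjusted p = 0.00361). In both genes HSA/d1 replicates 1 and 2 were far higher than replicates 3 and 4, while the HSA/d5 values were nearly the same in all 4 libraries. DDIT4 did not overlap between the days, whereas ADM of HSA/d1 replicate 3 lay within the range of HSA/d5. The summed level of the hypoxia genes followed the same course, with 1880.2, 1969.8, 972 and 1268 CPM on d1 and 981, 968, 948 and 979 CPM on d5. P4HA1, which hydroxylates collagen, fell with a log2 fold change of -1.19 (adjusted p = 0.00013), whereas VEGFA was at 248 ± 61.8 CPM on d1 and 243 ± 21.2 CPM on d5 (SD, n = 4, adjusted p = 0.901). 

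Immediate early genes, which respond within minutes to stress and growth signals, followed in part. Of 20 tested, 12 fell (18.7% of all genes did) and none rose (18.9%), with a median log2 fold change of -0.43. Past the fold threshold as well, and so downregulated, were 2 (2.22% of all genes were). The 12 were the genes whose HSA/d5 libraries all lay below the HSA/d1 libraries, a pattern seen in 15.2% of all genes tested. EGR1 was at 341, 352, 283 and 251 CPM on d1 and at 139.5, 158, 154 and 137 CPM on d5 (log2 fold change -1.06, SE 0.10, adjusted p = 6.31e-07), and ZFP36, which destabilises cytokine transcripts, at 187, 204, 113 and 98.8 CPM and at 60.7, 68.7, 71 and 54.1 CPM (log2 fold change -1.24, SE 0.18, adjusted p = 3.83e-05). Without HSA/d1 replicate 1 or 2 the fold of EGR1 was just inside the threshold (log2 fold change -0.99 without the latter). FOS and JUN, the partners of the AP-1 complex, had log2 fold changes of -0.80 and -0.44 (adjusted p = 6.3e-05 and 0.00162). NR4A2 was at 34.4 ± 3.49 CPM on d1 and 37 ± 5.06 CPM on d5 and did not pass the test (SD, n = 4, adjusted p = 0.58).

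Genes of the dividing cell rose over the same days. Of 38 tested, 9 were upregulated, 32 rose and 1 fell (median log2 fold change 0.80), and in 31 of them all d5 values lay above those of d1, and in 1 below. Of all genes tested, 6.7% were upregulated, 18.9% rose, and 15.7% lay wholly above and 15.2% wholly below their d1 values. TOP2A, the topoisomerase of replicating cells, was at 33.8, 58.6, 38.4 and 64.3 CPM on d1 and at 119.8, 93.8, 83.3 and 112 CPM on d5 (log2 fold change 1.07, SE 0.29, adjusted p = 0.00698). The mitotic kinase CDK1 went from 9.74, 13.5, 9.84 and 16.1 CPM to 31.1, 28.2, 23.3 and 32 CPM (log2 fold change 1.216, SE 0.22, adjusted p = 0.000352), and CENPA, the histone of the centromere, from 2.99, 5.45, 3.94 and 5.51 CPM to 13.8, 11.4, 8.56 and 12.2 CPM (log2 fold change 1.36, SE 0.32, adjusted p = 0.00269). In each of these genes HSA/d1 replicates 2 and 4 were above replicates 1 and 3, and no value of d1 reached those of d5. FOXM1, the factor that drives many mitotic genes, rose 1.93-fold (log2 fold change 0.95, SE 0.22, adjusted p = 0.00228).

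Other mitotic genes behaved alike, with log2 fold changes of 1.16 for the kinase AURKB, 1.32 for the kinetochore protein NDC80, 1.38 for PBK and 1.07 for cyclin B2 (CCNB2), each with an adjusted p below 0.05. The helicase subunits MCM2, MCM3, MCM4, MCM6 and MCM7 rose less, by 0.33 to 0.69 on the log2 scale, and MCM3 failed the test when any one of 5 of the 8 libraries was left out (adjusted p up to 0.103, without HSA/d1 replicate 2). Thymidylate synthase (TYMS) fell from 41.1, 34.9, 41 and 39.6 CPM to 28.8, 25.1, 29.96 and 26.2 CPM (log2 fold change -0.51, SE 0.12, adjusted p = 0.00219), against the rest of the list. The number past the fold threshold depended on single HSA/d1 libraries, since without HSA/d1 replicate 1 the list had 5 upregulated members and without HSA/d1 replicate 4 it had 15. Without the former, TOP2A had a log2 fold change of 0.93 and CCNB2 of 0.98, both still past the adjusted p. MKI67 and PCNA were not analysed here.

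Inhibitors of the cell cycle went in both directions. CDKN1C (p57), which is imprinted and restrains beta cell growth, was downregulated, from 23.9, 40.6, 27.2 and 29.7 CPM to 13.6, 8.08, 13.5 and 8.92 CPM (log2 fold change -1.46, SE 0.24, adjusted p = 0.00012). CDKN1A (p21), a target of p53, fell from 114, 119, 100.5 and 97.4 CPM to 43.2, 66, 59.7 and 48.8 CPM, close to the fold threshold (log2 fold change -0.98, SE 0.17, adjusted p = 0.000176), and with the replicate block it was past it, if narrowly (-1.002, adjusted p = 1.16e-07). CDKN2B (p15) had a log2 fold change of 1.28 (SE 0.40, adjusted p = 0.0169), and its adjusted p ranged up to 0.0905 when single libraries were left out (without HSA/d5 replicate 1, and 0.06 without HSA/d1 replicate 1). CDKN2A (p16) had 0 counts in the HSA/d1 libraries and 4 counts in the HSA/d5 libraries together, too few to test. The factors E2F1 and RB1 rose (log2 fold changes 1.16 and 0.36, adjusted p = 0.000774 and 0.0007). Over the 14 cyclins, kinases and inhibitors tested, 2 were upregulated (6.7% of all genes were), 1 was downregulated (2.22%), 7 rose (18.9%) and 3 fell (18.7%).

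The TGFβ and BMP pathway, whose SMAD2/3 branch the study examined, held few genes past the test. Of 43 ligands, receptors, SMADs and targets tested, none was upregulated and 1 was downregulated, 4 rose and 2 fell, and the median log2 fold change was -0.01. Of all genes tested 6.7% were upregulated, 2.22% were downregulated, 18.9% rose and 18.7% fell. At an unadjusted p below 0.05, 7 were higher and 3 lower, a count that was not made over all genes. The Wald test of DESeq2 upregulated 1 and downregulated 1, against 1069 and 380 of the 16500 genes it tested. The count of upregulated members with edgeR was 2 without HSA/d5 replicate 1 and at most 1 without any other single library. The receptor ACVR2A, which fell (log2 fold change -0.20), failed the test when any one of 5 libraries was left out (adjusted p up to 0.104). TGFB3 was the downregulated ligand, at 86.2, 58.6, 80.7 and 82.6 CPM on d1 and at 26, 27.3, 16.5 and 42.8 CPM on d5 (log2 fold change -1.45, SE 0.21, adjusted p = 4.11e-05), with no overlap. TGFB1 was at 92.6, 101, 77.9 and 95.4 CPM and 80.9, 79.1, 45.1 and 97.8 CPM (log2 fold change -0.28, SE 0.18, adjusted p = 0.22), and the activin subunit INHBA at 63.5, 64.5, 58.4 and 67.6 CPM and 60.3, 55.9, 62.6 and 70.8 CPM (log2 fold change -0.03, SE 0.21, adjusted p = 0.932).

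The feedback inhibitor SMAD7, a direct target of the pathway, was at 20.8, 33.6, 14 and 18 CPM on d1 and 22.2, 18.9, 9.66 and 16.8 CPM on d5 (log2 fold change -0.36, SE 0.27, adjusted p = 0.314), which did not pass the test. With no block its log2 fold change was -0.06 without HSA/d1 replicate 2 (adjusted p = 0.883) and -0.16 without HSA/d5 replicate 3. CCN2, another target, rose from 205 ± 20.7 to 325 ± 60.8 CPM (SD, n = 4, adjusted p = 0.000417), as did the ligands GDF11 and GDF15 (log2 fold changes 0.75 and 0.997, adjusted p = 0.00278 and 0.00742). With the replicate block, 2 members were upregulated and 2 were downregulated (7.8% and 2.78% of all genes), and 8 rose and 10 fell (27% and 27.4% of all genes). Among the latter was TGFB1 (-0.31, adjusted p = 0.0154). With the block and only the 8 HSA libraries the adjusted p of TGFB1 was 0.0889, and up to 0.0678 when a library was left out of the blocked fit. Without HSA/d5 replicate 3 its log2 fold change was -0.18 with the block and -0.09 with no block. The target ID1 had 4 and 5 counts in the 2 groups and was not tested.

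Matrix genes were mixed. Of 38 tested, 2 were upregulated (6.7% of all genes were), 3 downregulated (2.22%), 8 rose (18.9%) and 4 fell (18.7%), with a median log2 fold change of 0.17. The median log2 ratio of d5 to d1 was 0.34, 0.57, -0.64 and 0.19 in same-numbered pairs 1 to 4, with pair 3 opposite to the others. Only 1 member was upregulated without HSA/d1 replicate 1 or 2 or HSA/d5 replicate 2 or 4, and 4 rose without HSA/d1 replicate 1 or HSA/d5 replicate 4 and 5 without HSA/d1 replicate 2. With the replicate block 13 rose (27% of all genes did). The basement membrane proteoglycan HSPG2 was at 799, 700.3, 779.6 and 669 CPM on d1 and at 1433, 1689, 1527 and 1441 CPM on d5 (log2 fold change 1.05, SE 0.11, adjusted p = 2.02e-06) with tight groups, and its log2 fold change was 0.99 without HSA/d5 replicate 2. The protease inhibitor TIMP1 was at 1034, 689, 800.1 and 517 CPM and 207, 291, 180.3 and 176 CPM (log2 fold change -1.83, SE 0.27, adjusted p = 4.34e-05), and tenascin C (TNC), a matrix protein of remodelling tissue, at 485, 312, 894 and 924 CPM and 225, 124, 176 and 356 CPM (log2 fold change -1.57, SE 0.43, adjusted p = 0.0079). TIMP1 did not overlap between the days, and TNC fell in every pair but overlapped across them. Collagen I (COL1A1) was at 2076, 1651, 2795 and 2558 CPM on d1 and at 1312, 1518, 202 and 1862 CPM on d5. HSA/d5 replicate 3 was far below the other libraries. The difference gave a log2 fold change -0.89, SE 0.42, adjusted p = 0.103 over all libraries and a log2 fold change of -0.54 (adjusted p = 0.16) without that library, and with the replicate block COL1A1 was downregulated (-1.09, adjusted p = 0.0167). With the block it was -0.66 without HSA/d5 replicate 3, inside the fold threshold, and with only the 8 HSA libraries its adjusted p was 0.181.

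Of 31 adhesion genes, 6 were upregulated (6.7% of all genes were), 12 rose (18.9%) and 4 fell (18.7%), and with the replicate block 16 rose (27%) and 7 fell (27.4%). The upregulated members included neural and endocrine adhesion proteins such as CNTN1 (log2 fold change 2.27, adjusted p = 0.000521), and NCAM1 rose 1.89-fold (adjusted p = 0.0028). The members that fell were junction proteins of epithelia. OCLN, CLDN3, CLDN4 and JUP had log2 fold changes of -0.73, -0.81, -0.70 and -0.44, each with an adjusted p below 0.05. E-cadherin (CDH1) was at 2084 ± 116 CPM on d1 and 2232 ± 384 CPM on d5 (SD, n = 4, adjusted p = 0.553).

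NICCs carry exocrine cells over from the pancreas, and transcripts of acinar cells, the makers of digestive enzymes, were lower on d5. The summed level of 13 acinar markers was 29908, 17392, 14808 and 7247 CPM on d1 and 12008, 4929, 2884 and 958 CPM on d5, lower on d5 in every pair, although replicate 1 stayed higher on d5 than replicate 4 had been on d1. CPA1, a carboxypeptidase and the marker with the most reads, was at 16566, 8749.9, 7710.5 and 3923 CPM on d1 and at 6181, 2558, 1646 and 569.7 CPM on d5, and the lipase CEL at 9725, 6220.2, 4977 and 2121 CPM and 5487, 2150.2, 1136 and 337 CPM. In both genes the libraries had the same order on d1 and on d5, with replicate 1 highest and replicate 4 lowest, so that the groups overlapped while every pair showed a decrease. Unblocked, neither passed the test (-1.75 and -1.34 on the log2 scale, adjusted p = 0.0757 and 0.222), and with the replicate block both were downregulated (-2.04 and -1.78, adjusted p = 3.45e-06 and 1.05e-05). Without HSA/d5 replicate 1 and with no block, CPA1 had a log2 fold change of -2.54 (adjusted p = 0.0242).

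Of the acinar markers, small secreted proteins had the largest decreases. PLA2G1B, pancreatic phospholipase A2, was at 994, 636, 352 and 194 CPM on d1 and at 15.3, 12.6, 3.49 and 2.46 CPM on d5, 64.1-fold lower (log2 fold change -6.00, SE 0.90, adjusted p = 5.99e-05). Colipase (CLPS) was at 2299, 1468, 1603 and 899.6 CPM and 147, 75.3, 52.7 and 23.6 CPM, 21-fold lower (log2 fold change -4.39, SE 0.68, adjusted p = 7.89e-05). In each same-numbered pair the ratio of d5 to d1 was smaller for both genes than for CPA1 and CEL. PTF1A, the transcription factor of acinar cells, had a log2 fold change of -1.93 (adjusted p = 0.047), which failed the test when any one of 6 of the 8 libraries was left out (up to 0.128, without HSA/d1 replicate 1). Of the 13 markers, 5 were downregulated with no block (2.22% of all genes were) and 10 with it (2.78%, median log2 fold change -1.75), and 3 were downregulated without HSA/d1 replicate 1, HSA/d5 replicate 3 or HSA/d5 replicate 4. Trypsinogens, chymotrypsinogens and amylases were not analysed here, and PNLIP had 37 and 6 counts in the 2 groups.

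Part of the ductal markers fell. Of 21 tested, 4 were downregulated (2.22% of all genes were), 9 fell (18.7%) and none rose (median log2 fold change -0.31), and their summed level was 13418, 16952, 15419 and 15439 CPM on d1 and 9824, 13195, 15377 and 9188 CPM on d5. Carbonic anhydrase 2 (CA2), which serves bicarbonate secretion, was at 104, 83.7, 91.2 and 96.6 CPM on d1 and at 27.3, 28.7, 40.2 and 28.2 CPM on d5 and had the smallest p of all downregulated genes that had a symbol and no overlap (log2 fold change -1.59, SE 0.12, adjusted p = 1.96e-07). The keratins KRT8 and KRT18 fell by 0.65 and 0.54 on the log2 scale (adjusted p = 0.000981 and 0.00146). The defining markers KRT7, SOX9 and CFTR did not pass the test: KRT7 was at 725 ± 129 and 666 ± 191 CPM, SOX9 at 225 ± 38.4 and 194 ± 48.9 CPM, and CFTR at 942 ± 128 and 1286 ± 507 CPM (SD, n = 4). With the replicate block SOX9 fell (-0.24, adjusted p = 0.00224) and CFTR, the chloride channel of duct cells, rose (0.40, adjusted p = 0.0271).

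Mesenchymal markers set 1 library apart. Their summed level was 8819.5, 7282, 11359.7 and 11776 CPM on d1 and 8501, 8915, 2954 and 10395 CPM on d5, with HSA/d5 replicate 3 at less than any other library, and the median log2 ratio of the 15 tested was -0.15, 0.39, -2.17 and -0.36 in same-numbered pairs 1 to 4. The gene TAGLN, an actin-binding protein, fell (adjusted p = 0.0351) and no other member passed the test, with 3 members that fell under the replicate block (18.7% of all genes fell, and 27.4% with the block), and TAGLN failed the test when any one of 5 libraries was left out, HSA/d5 replicate 3 among them (adjusted p = 0.0735 without it). PDGFRB, a receptor of stellate cells and pericytes, was at 257, 249.9, 327 and 331 CPM on d1 and at 291, 288, 79.5 and 297 CPM on d5. The log2 fold change was -0.28 over all libraries (adjusted p = 0.454) and 0.01 without HSA/d5 replicate 3 (adjusted p = 0.984). None of 12 endothelial markers passed edgeR's test, with a median log2 fold change of -0.29. At an unadjusted p below 0.05, 0 were higher and 0 lower, a count that was not made over all genes. DESeq2 called 0 higher and 0 lower, against 3033 and 2830 of the 16500 genes it tested. With the block 6 of the 12 endothelial markers fell (27.4% of all genes did), among them PECAM1 (-0.37, adjusted p = 0.00671).

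The same library was high in inflammatory mediators. CXCL8, a chemokine for neutrophils, was at 209, 175, 103 and 112 CPM on d1 and at 131, 83.5, 503 and 54.1 CPM on d5. The prostaglandin synthase PTGS2 was at 16.6, 23.8, 8.16 and 7.09 CPM and 41, 34.7, 158 and 11.7 CPM, and IL1A at 1.218, 1.09, 0.609 and 0.862 CPM and 3.75, 1.13, 19.9 and 1.43 CPM. In all 3 genes HSA/d5 replicate 3 held the highest value of the 8 libraries. Over the 22 mediators tested, the median log2 ratio was 0.90 in pair 3 and between -0.18 and -0.08 in the other pairs. IL1A, PTGS2, CSF3 and CCL2 were the 4 upregulated members of 22 tested (6.7% of all genes were), and without HSA/d5 replicate 3 none was (log2 fold changes then 1.16, 1.07, -0.20 and 0.82, adjusted p = 0.0572, 0.145, 0.872 and 0.00754). CXCL8 had a log2 fold change of 0.37 over all libraries (adjusted p = 0.57) and of -0.74 without that library (adjusted p = 0.085). With the replicate block 7 mediators rose (27% of all genes did) and 2 fell (27.4%). CCL2 was at 7.66, 10.7, 12.2 and 14.9 CPM on d1 and at 21.3, 16.8, 44 and 22.4 CPM on d5, higher in every HSA/d5 library (log2 fold change 1.20, SE 0.26, adjusted p = 0.00149).

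**Figure D3:**
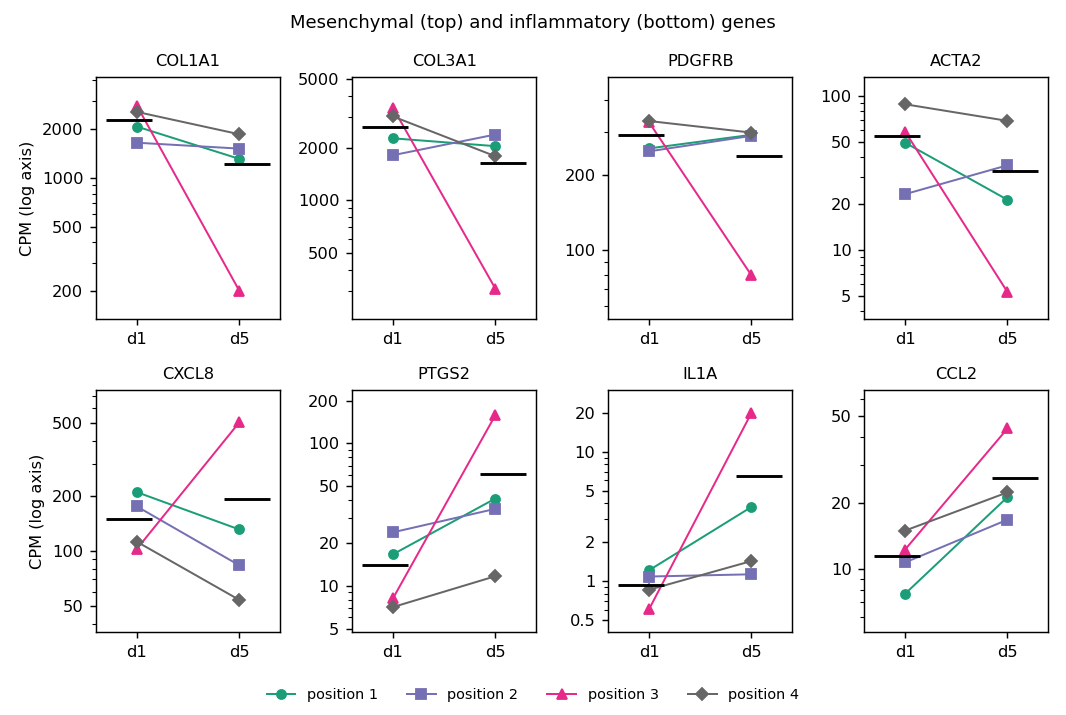
CPM on log axes of 4 mesenchymal genes (top) and 4 inflammatory genes (bottom) in HSA/d1 and HSA/d5 libraries, with 1 line per replicate number and bars at group means (n = 4). HSA/d5 replicate 3 is the lowest library for COL1A1, COL3A1, PDGFRB and ACTA2 and the highest for CXCL8, PTGS2, IL1A and CCL2.

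Part of the macrophage genes, all at low levels, rose. The complement gene C1QA was at 4.21, 2.91, 3.56 and 2.01 CPM on d1 and at 21, 12.9, 9.97 and 6.05 CPM on d5 (log2 fold change 1.97, SE 0.42, adjusted p = 0.00119), and C1QB and C1QC, the other chains of C1q, had log2 fold changes of 1.97 and 1.94 (adjusted p = 0.000954 and 0.00273). The scavenger receptor CD163 rose 3.01-fold (adjusted p = 0.00269). The pan-leucocyte gene PTPRC was at 2.03, 1.77, 1.5 and 1.01 CPM and 6.68, 5.06, 3.18 and 1.43 CPM, with an adjusted p of 0.0456 that rose past the threshold when any one of 6 of the 8 libraries was left out (up to 0.155, without HSA/d5 replicate 1). The marker CD68 was at 11.6 ± 5.22 and 13.1 ± 4.43 CPM (SD, n = 4, adjusted p = 0.727). Of 15 leucocyte markers 6 were upregulated (6.7% of all genes were, median log2 fold change 1.00), and their summed level was 60.2, 63, 59.2 and 48.7 CPM on d1 and 147, 107, 86.9 and 61.1 CPM on d5. The lymphocyte gene CD3E had 0 counts on both days and was not tested.

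Transcripts of nerve and Schwann cells, the latter being the glia of peripheral nerves, were higher on d5 in every same-numbered pair, with very different starting levels. Their summed level was 547, 594, 698 and 1186 CPM on d1 and 972, 894, 1075 and 2498 CPM on d5, with replicate 4 above all others on both days. ERBB3 had the highest level of the members, and how specific the members are for these cells was not tested. SOX10, the factor that defines Schwann cells, was at 35.7, 37, 63.5 and 104 CPM and 81.6, 65.2, 108 and 203 CPM (log2 fold change 0.93, adjusted p = 0.13, with the block 4.82e-07, without HSA/d1 replicate 4 0.0445, and without HSA/d5 replicate 4 0.458). Of 10 markers, 3 were upregulated and 3 rose with no block (6.7% and 18.9% of all genes), and 8 were upregulated and 10 rose with it (7.8% and 27%). Without HSA/d1 replicate 4 and with no block, 7 were upregulated. The upregulated member CDH19 (log2 fold change 1.45 with no block) failed the test without HSA/d1 replicate 1, HSA/d1 replicate 2 or HSA/d5 replicate 4 (adjusted p = 0.0852, 0.0837 and 0.118).

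**Figure D4:**
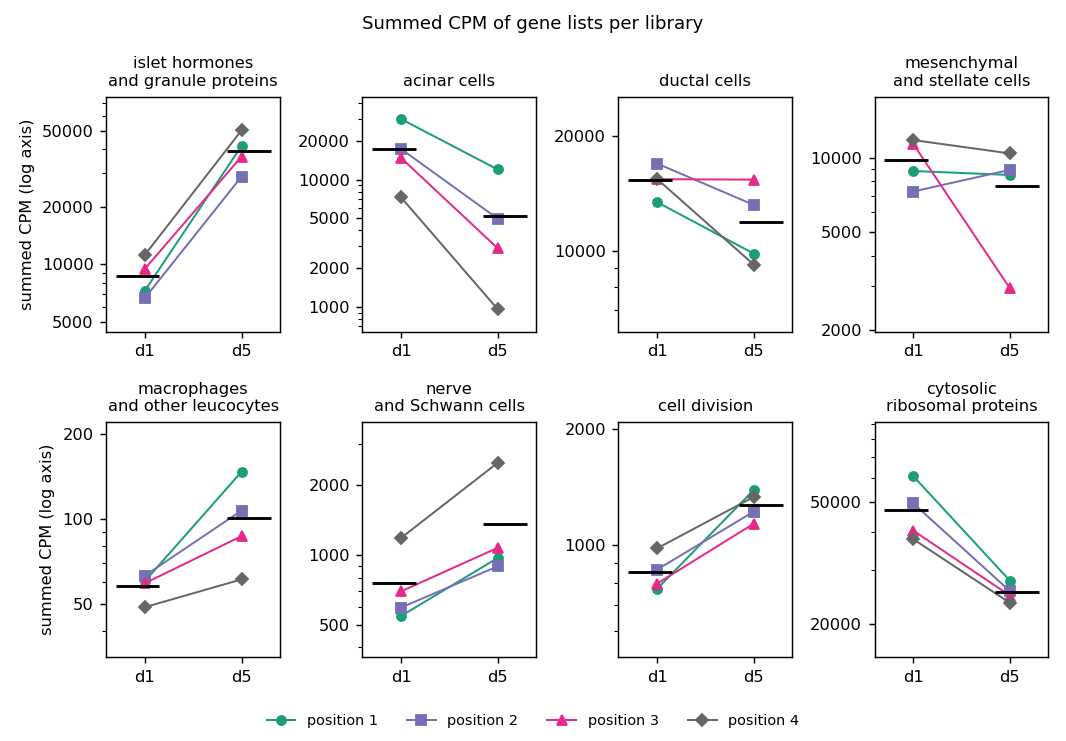
Summed CPM per library, on log axes, of 7 gene lists and of 42 cytosolic ribosomal protein genes in HSA/d1 and HSA/d5, with 1 line per replicate number and bars at group means (n = 4). Lines rise in every pair for hormones and granule proteins, leucocytes, nerve and Schwann cells and cell division. They fall in every pair for acinar cells, ductal cells and ribosomal proteins, for ductal cells only slightly in replicate 3.

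In lipid metabolism, most genes of fatty acid synthesis rose, and few genes of cholesterol synthesis passed the test. Of 13 genes of fatty acid synthesis, 2 were upregulated (6.7% of all genes were), 8 rose (18.9%) and 1 was downregulated (2.22%). Their median log2 fold change was 0.40. The downregulated member was THRSP, a lipogenic factor that did not pass the test without HSA/d5 replicate 3. The desaturase SCD was at 42.1, 31.7, 31.4 and 42.7 CPM on d1 and at 141, 126, 71.4 and 86.4 CPM on d5 (log2 fold change 1.53, SE 0.19, adjusted p = 8.89e-06). Acetyl-CoA carboxylase (ACACA), the first enzyme of the pathway, rose 2.23-fold, ACLY 1.95-fold and fatty acid synthase (FASN) 1.41-fold (adjusted p = 8.56e-06, 0.00206 and 7.57e-05). Of 22 genes of cholesterol synthesis and uptake, 2 were upregulated and 3 fell (median log2 fold change -0.12), and with the replicate block 4 rose and 6 fell. Of all genes tested, 6.7% were upregulated and 18.7% fell, and with the block 27% rose and 27.4% fell. The upregulated members were the sterol exporters ABCA1 and ABCG1, and ABCA1 was at 41.3, 31.3, 62.7 and 72.2 CPM on d1 and at 172, 196, 158 and 192 CPM on d5 (log2 fold change 1.79, SE 0.21, adjusted p = 6.65e-06).

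Chaperones of the endoplasmic reticulum rose modestly, among them HSPA5 (1.39-fold), CALR (1.46-fold) and HYOU1 (1.48-fold), each with an adjusted p below 0.05, whereas the stress-induced factors ATF3 and PPP1R15A fell (log2 fold changes -0.85 and -0.49, adjusted p = 0.000491 and 0.000963). Of 19 genes of this list none passed the fold threshold, 7 rose (18.9% of all genes did) and 3 fell (18.7%). Among 15 interferon response genes, ISG15 fell (log2 fold change -0.87, adjusted p = 0.00768) and the rest did not pass the test, although with the replicate block 2 rose (27% of all genes did) and 5 fell (27.4%). MX1, an antiviral GTPase, was at 29.9 ± 4.92 and 30.1 ± 4.7 CPM (SD, n = 4). Of 13 cilia genes 3 were upregulated (6.7% of all genes were) and 5 rose (18.9%), or 8 with the replicate block (27%). RFX3, a regulator of islet cell cilia, was at 4.36, 5.77, 6.33 and 7.14 CPM on d1 and 10.3, 8.36, 13.7 and 12.5 CPM on d5 (log2 fold change 0.93, SE 0.23, adjusted p = 0.00419), and FOXJ1, the factor of motile cilia, was at 4.06 ± 1.2 and 3.3 ± 1.8 CPM (SD, n = 4, adjusted p = 0.588). The cilia genes DNAH5 and RFX2 rose whichever single library was left out. Their log2 fold changes were then 1.52 to 1.78 and 1.09 to 1.37 (adjusted p up to 0.00062 and 0.00763). Of 5 genes of zinc handling, SLC30A8 and SLC39A10 rose and SLC30A1, SLC39A14 and the metallothionein MT3 fell, but MT3 failed the test when any one of 5 libraries was left out, and SLC30A8 as described above.

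Of the 13 mitochondrially encoded genes 1 fell (2 with the replicate block) and none rose (18.7% of all genes fell, 27.4% with the block, and 18.9% rose), with a median log2 fold change of -0.14. That gene was ATP6, with a log2 fold change of -0.30 (adjusted p = 0.0135), and its adjusted p was 0.0678 without HSA/d1 replicate 1 and 0.0562 without HSA/d5 replicate 4. COX1 was at 16275 ± 1474 CPM on d1 and 16408 ± 3319 CPM on d5 (SD, n = 4). ND1 split the libraries by replicate number instead of by day: it was at 459, 383, 1526 and 1261 CPM on d1 and at 369.8, 423, 1525 and 1197 CPM on d5, so that replicates 1 and 2 lay far below replicates 3 and 4 on both days.

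**Figure D5:**
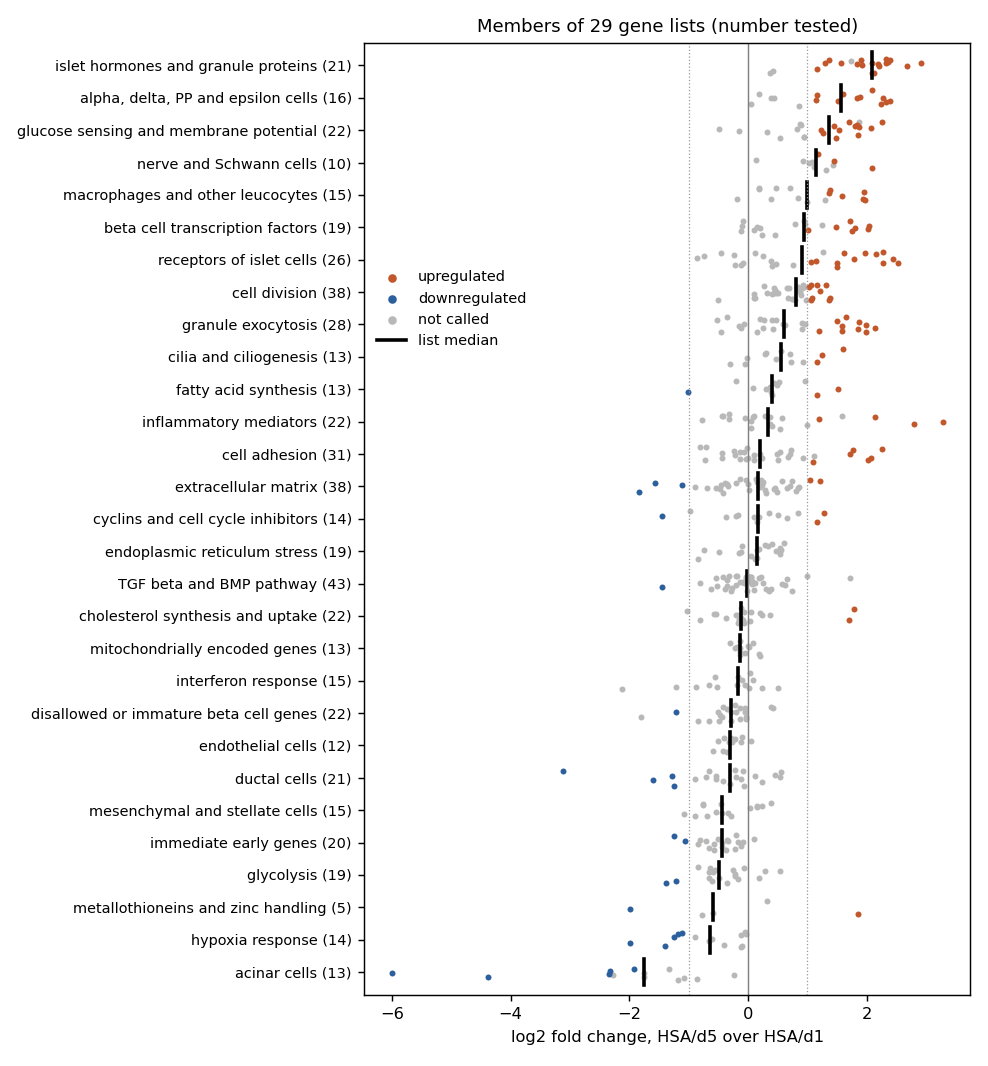
Log2 fold changes (HSA/d5 over HSA/d1) of the tested members of 29 gene lists, 1 point per gene, orange where upregulated, blue where downregulated and grey where not called, with a black bar at each list's median and dotted lines at 1 and -1. Islet lists lie at the top with medians up to 2.09 and acinar markers at the bottom with a median of -1.75.

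Outside these lists, the genes with the smallest p values and no overlap between the groups covered several functions. PGAP1, which remodels GPI anchors, was at 27.2, 27.9, 27.6 and 29.2 CPM on d1 and at 92.4, 75, 61.9 and 77 CPM on d5 (log2 fold change 1.45, SE 0.13, adjusted p = 6.31e-07). ITPR1, a calcium release channel of the endoplasmic reticulum, went from 30.6, 29, 36.6 and 40.5 CPM to 77.4, 79.96, 63.9 and 82.7 CPM (log2 fold change 1.15, SE 0.11, adjusted p = 1.1e-06). Both had narrow groups that lay well apart. RADX, TCEAL9, B4GALNT3, NELL2 and PRODH2 were also among the 10 upregulated genes with the smallest p, with log2 fold changes of 1.72, 1.05, 1.05, 1.64 and 2.29 (adjusted p = 9.68e-07, 1.01e-06, 1.08e-06, 1.12e-06 and 1.35e-06).

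Of upregulated genes with a symbol, a mean above 1 CPM on d5 and no overlap, transferrin (TF), the iron carrier of plasma, rose most. It was at 5.48, 6.31, 21 and 20.1 CPM on d1 and at 275, 293, 143 and 324 CPM on d5, 19.5-fold higher (log2 fold change 4.29, SE 0.49, adjusted p = 4.64e-06). TRPA1, a cation channel opened by irritants, was at 6.65, 1.64, 3.7 and 5.27 CPM and 72.7, 24.5, 87.1 and 32.5 CPM (log2 fold change 3.66, SE 0.52, adjusted p = 3.83e-05). CBLN4, BPIFA1 and SYT10 had log2 fold changes of 3.65, 3.50 and 3.35 (adjusted p = 1.78e-05, 0.000629 and 0.000166), from means of 1.21, 1.46 and 0.0951 CPM on d1 that leave the size of the fold imprecise.

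Among downregulated genes, surfactant protein B (SFTPB) was at 7.16, 3.13, 4.73 and 5.94 CPM on d1 and at 0.316, 0.425, 0.309 and 0.154 CPM on d5 (log2 fold change -4.09, SE 0.35, adjusted p = 4.77e-07), and CBR1, a carbonyl reductase, at 10.7, 4.18, 3.0 and 5.08 CPM and 0.451, 0.284, 0.0883 and 0.154 CPM (log2 fold change -4.51, SE 0.58, adjusted p = 1.35e-05). The DNA repair enzyme MGMT went from 108, 102, 101 and 84.6 CPM to 42.9, 47.5, 51.8 and 37.6 CPM (log2 fold change -1.14, SE 0.13, adjusted p = 4.6e-06). All 3 were lower in each HSA/d5 library than in any HSA/d1 library. NOP53, a factor of ribosome assembly, had a log2 fold change of -1.17, the activity-regulated gene ARC of -1.56, and CLEC2B, METTL21A and TMEM171 of -2.38, -1.34 and -2.89, each with an adjusted p below 0.05. PNLIPRP2, a lipase relative, had a log2 fold change of -4.17 (adjusted p = 0.0219) with values of 28.1, 4.04, 1.97 and 2.16 CPM on d1 and 1.35, 0.331, 0.132 and 0.154 CPM on d5. HSA/d1 replicate 1 was far above the other libraries, and without it the log2 fold change was -2.43 (adjusted p = 0.171). Without HSA/d5 replicate 2, 3 or 4 the adjusted p was 0.0516, 0.0567 and 0.0617.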

How the data were processed

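Poly-A RNA of porcine NICCs was sequenced as stranded 75-base single reads. The values deposited by the authors are raw read counts per gene of 25880 genes in 24 libraries, not normalised. The submitters' processing notes name FastQC 0.11.8, Trim Galore 0.5, STAR 2.6.1, Picard, featureCounts 1.6.2 and DESeq2 1.22.1, and the genome build is not given in the sources used here. Runs of the same library share a column, as in 3 of the 8 HSA libraries.

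Counts were tested with edgeR 4.0.16 in R 4.3.3 (TMM normalisation, filterByExpr over the 6 conditions, glmQLFit and glmQLFTest). All 24 libraries entered the fit with 1 coefficient per condition and no covariate, and HSA/d5 was contrasted with HSA/d1, 4 libraries each, at 19095896 to 22967442 counts per library. SE is the absolute log2 fold change divided by the square root of F. Genes past a log2 fold change of 1 and an adjusted p of 0.05 (Benjamini-Hochberg) were called. The pipeline was tested on simulated data. Symbols were matched from identifiers for 12522 of the 14842 genes tested, and genes without a matched symbol were not analysed here by name. Some members of the lists, and 1 other gene that met the rule for named genes, count in the totals and are not reported here by name. Without the alignments, genes with near-identical copies are uncertain.

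Replicate numbers are positions in the order of library numbers. The numbers paired the libraries: deviations from the group means correlated at 0.257 to 0.654 between same-numbered libraries of the 2 groups and at -0.448 to 0.247 between others, and all 8 libraries correlated best with their own number, so fits with the number as a replicate block were set beside the unblocked fit. Other alternatives were DESeq2 1.42.0, its size factors, upper-quartile scaling, other filters, glmTreat, the 8 HSA libraries alone, and leaving out each library.

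The comparison and the 29 gene lists (553 genes tested of 636) were chosen with earlier results of these data known. Genes named outside the lists were the 10 called genes with a symbol, a mean above 1 CPM in the higher group and no overlap that had the smallest p in each direction, and the 5 with the largest change. Others named from the lists were picked for their role or after their values were seen.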

Additional observations from a re-analysis of the deposited data

Results flagged for a closer look

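In 35 of 542 groups of 4 values examined (gene lists and named genes), the highest or lowest library stood apart from the other 3 by more than Dixon's criterion for 4 samples allows, which compares the gap to the nearest value with the whole range. Chance flags about 1 group in 20, and the flagged genes share libraries.

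HSA/d5 replicate 4 held the largest number. Its summed level of nerve and Schwann cell markers was 2498 CPM against 894 to 1075 CPM in the other HSA/d5 libraries, with CDH19 at 63.6 CPM and CDH2 at 80.3 CPM. GLP1R was highest in replicate 4 on both days, at 4.65 CPM in HSA/d1 replicate 4 and at 8.97 CPM in HSA/d5 replicate 4. Among islet genes, CHGB was at 2498 CPM against 1287 to 1351 CPM, PTPRN at 366 CPM, SYT7 at 95.3 CPM, VAMP2 at 87.3 CPM and the adhesion protein CADM1 at 406 CPM, each the highest of its group. Fatty acid synthesis genes summed to 1946 CPM against 1421 to 1495 CPM, with ACLY at 1019 CPM, and CALR was at 858 CPM. HNF4A at 112 CPM and DNAH5 at 2.15 CPM were the lowest of their groups in the same library.

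HSA/d5 replicate 3 was low in PDGFRB, at 79.5 CPM against 288 to 297 CPM, and high in IL1A (19.9 CPM), CSF3 (7.55 CPM against 0.0903 to 0.236 CPM), COX1 (21354 CPM) and CA2 (40.2 CPM). HSA/d5 replicate 2 was high in ACACA (227 CPM) and KRT7 (951 CPM), and HSA/d5 replicate 1 in PNLIPRP2 (1.35 CPM).

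Among HSA/d1 libraries, replicate 1 was high in PNLIPRP2 (28.1 CPM against 1.97 to 4.04 CPM) and HPX (2.28 CPM) and low in DPP4 (9.29 CPM), NKX2-2 (13.7 CPM), FOXJ1 (2.28 CPM) and the summed cilia genes (117 CPM). Replicate 2 was high in CD68 (19.3 CPM) and VCAM1 (107 CPM) and low in ACVR2A (26.1 CPM). Replicate 3 was low in AQP5 (5.16 CPM). Replicate 4 was low in C1QC (2.35 CPM) and CD163 (0.766 CPM).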

How the results depend on the processing

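The count of upregulated genes was 994 in the fit reported and 1003 with DESeq2's size factors, 993 with upper-quartile scaling, 1069 with the Wald test of DESeq2, 1015 with no filter on low counts, 836 with only the 8 HSA libraries and 1157 with the replicate block, and 797 to 1120 when each library in turn was left out. The counts of downregulated genes were 329, 327, 331, 380, 375, 261 and 412 in the same order, and 245 to 404 with a library left out. Only 711 were upregulated and 187 downregulated when at least 10 counts in every library were required. Tested with glmTreat against a log2 fold change of 1, 84 genes were upregulated and 30 downregulated. At the adjusted p alone, 2267 to 2847 genes were higher and 2024 to 2832 lower with a library left out, and 1839 were lower with only the 8 HSA libraries.

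Paired by replicate number, 987 of 994 upregulated genes and 322 of 329 downregulated genes were called again, and the replicate block over 24 libraries ended no call of a named gene, while 21 named genes were past the adjusted p only with it. Those described in the report stand there. CDH2, CPB1, SYCN, IFIT1, CSF1R and ACTA2 had adjusted p values of 8.54e-08, 0.00849, 0.000463, 0.00412, 0.0292 and 0.0412 with it. With the block and only the 8 HSA libraries, 11 named genes that had passed the adjusted p no longer did, among them ATP6, TAGLN, IL1A, PTGS2, CDKN2B and PGK1 (adjusted p = 0.0513 to 0.139 over the 11), and VEGFA was at 0.00653 and CXCL8 at -0.22 on the log2 scale. With the block and without HSA/d5 replicate 2, VEGFA was at 0.0289, and without HSA/d5 replicate 3, CXCL8 was at -0.71 and COX1 at -0.12. None of these passed the test except CXCL8 without HSA/d5 replicate 3 (adjusted p = 0.024).

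Leaving out single libraries turned the sign of the log2 fold change of INHBA (-0.0904 to 0.0246), CDH1 (-0.0124 to 0.16), PDGFRB (-0.41 to 0.00607), VEGFA (-0.16 to 0.13), CXCL8 (-0.74 to 0.68), MX1 (-0.0857 to 0.099), ND1 (-0.45 to 0.33), COX1 (-0.14 to 0.0719) and CSF3 (-0.20 to 3.69), of which CSF3 had passed the test. The cause was not tested. Precision is limited by 4 libraries a group, by genes below about 1 CPM and by preparations that the labels do not assign to libraries.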

Other observations

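The genes below were grouped after their values were seen, and no test was run on the groups. Cytosolic ribosomal proteins, the building blocks of the translation machinery, were lower on d5 almost throughout. Of 42 tested, 41 fell and none rose (18.7% of all genes fell), and 8 were downregulated (2.22% of all genes were). In 40 all HSA/d5 libraries lay below all HSA/d1 libraries (15.2% of all genes). Their median log2 fold change was -0.89. Their summed level was 60748, 49536, 40375 and 37857 CPM on d1 and 27734, 25656, 24798 and 23488 CPM on d5, and it differed between HSA/d1 libraries much more than between HSA/d5 libraries. RPS13, which is used as a reference transcript in quantitative PCR, was at 647, 548, 429 and 399.8 CPM on d1 and at 283, 266, 240.1 and 246 CPM on d5 (log2 fold change -0.97, SE 0.14, adjusted p = 3.08e-05). RPLP0, another such transcript, had a log2 fold change of -0.84 and RPS12 of -1.11 (adjusted p = 5.86e-05 and 1.4e-05). Without HSA/d1 replicate 1 the log2 fold changes of RPS13, RPLP0 and RPS12 were -0.82, -0.69 and -0.92. RPS12, a downregulated member, was then inside the fold threshold but still fell (adjusted p = 4.94e-05). The direction was the same under DESeq2's size factors, upper-quartile scaling and the replicate block, with 41 genes that fell in each. Ribosomal protein genes have many processed copies, so single counts are uncertain. Mitochondrial ribosomal proteins were lower by less, with 34 of 61 that fell, none past the fold threshold and a median log2 fold change of -0.26, and of 10 tested subunits of the initiation factor EIF3, 9 fell (median log2 fold change -0.37).

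Part of the genes of plasma proteins, which are made chiefly by liver, rose. Of 22 tested, 10 were upregulated (6.7% of all genes were), 11 rose (18.9%), 1 was downregulated (2.22%) and 10 did not pass the test (median log2 fold change 1.02). Beside TF and GC, ceruloplasmin (CP) rose from 29.9, 32.5, 23.5 and 20.6 CPM to 144, 161, 234 and 98.3 CPM (log2 fold change 2.58, SE 0.29, adjusted p = 4.71e-06), and the thyroid hormone carrier transthyretin (TTR), which islet cells also make, from 62.6, 82.4, 53.1 and 59.97 CPM to 317, 265, 147 and 193 CPM (log2 fold change 1.84, SE 0.28, adjusted p = 6.01e-05). Hemopexin (HPX), SERPIND1 and C4BPB had log2 fold changes of 2.20, 1.68 and 2.15 (adjusted p = 0.000542, 2.02e-06 and 1.55e-05). With the replicate block 14 rose and 3 fell (27% and 27.4% of all genes), AFP among the latter. With no block alpha-fetoprotein (AFP) was the member that fell, from 50.3, 52.6, 19.3 and 12.8 CPM to 6.91, 13.5, 1.5 and 1.79 CPM (log2 fold change -2.51, SE 0.71, adjusted p = 0.00944), and albumin (ALB) was at 1.78, 1.82, 2.34 and 2.06 CPM on d1 and at 2.03, 2.27, 1.41 and 1.79 CPM on d5 (adjusted p = 0.798).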
